A study of Mus musculus with 2 samples.

Results

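Heat shock proteins and their co-chaperones are the machinery that folds, holds and recycles other proteins. They were taken here by name as every gene symbol that begins with Hsp or Dnaj, without the matrix proteoglycan Hspg2, together with Bag1 to Bag6 and Hsf1 to Hsf4. The rule found 84 of the 32531 gene symbols and reads names alone. A level in CPM is a gene's count scaled to a library of 1000000 counts on gene lines. The genes comprise 3 HSP90 genes, 14 genes of the HSP70 and HSP110 families, 2 subunits of the mitochondrial chaperonin, 7 small heat shock proteins and 45 J-domain proteins. They also comprise 6 BAG proteins, 4 heat shock factors and 3 further symbols that share the prefix, Hspb11, Hspbp1 and Hspbap1.

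The RNA came from dentate gyrus of adult, untreated mice of the Lypd1-EGFP/Rpl10a (OI82) line, in 1 group of 2 replicates, both immunopurified. In this line the ribosomal protein Rpl10a carries an EGFP tag, and ribosomes that hold it are pulled down with their messages (translating ribosome affinity purification, TRAP). Tagging follows the regulatory sequence of Lypd1, so the line marks the cells in which that sequence is active and is not a marker of 1 cell type. Sex, exact age and any pooling of animals are not given in the labels, so the spread between the replicates may be technical or may come from differences between animals.

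HSP70 proteins bind and release unfolded stretches in a cycle driven by ATP. J-domain proteins deliver clients and speed up ATP hydrolysis, while nucleotide exchange factors of the HSP110 and BAG families reset the cycle. HSP90 takes over partly folded clients such as kinases and steroid receptors, and the heat shock factors, chiefly Hsf1, switch many of these genes on under protein stress. In neurons the same machinery serves vesicle release and recycling at the synapse.

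Replicate 1 held 31309643 counts on gene lines and replicate 2 held 32711412. Over all genes their counts differed far beyond counting error, with a chi-square statistic of 67.8 times its degrees of freedom, so they are separate libraries. All 12 granule cell markers checked were detected, with a summed level of 4414 CPM in replicate 1 and 4388 in replicate 2. The 7 microglial markers summed to 2.81 and 3.52 CPM, and both C1qa and C1qb had 0 counts. The 16 immediate early genes, which neuronal activity switches on, summed to 853 CPM in replicate 1 and 3090 in replicate 2. Egr3 alone made up 304 and 2071 CPM of these sums, while some of the genes, such as Egr1 (112 and 86.2 CPM), were lower in replicate 2. The transcript Xist, made from an inactive X chromosome, stood at 0.479 and 11.3 CPM, so the replicates may differ in the sex of the animals. Sex, neuronal activity and preparation cannot be told apart as sources of a difference between 2 libraries.

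Motif letters found in the promoters of these genes are shown first, since several members are textbook targets of stress-induced transcription. Promoter windows were the 250 bases before each RefSeq start on GRCm38.p6, and 67 of the 84 genes matched an entry. Those without an entry, which were not searched, include Hsp90ab1, Hsp90aa1, Hspa8, Hspa9, Dnajc5, Dnajc18, Bag4 and Hsf1. The heat shock element, the site that heat shock factors bind, was searched in its form with 3 alternating units (GAANNTTCNNGAA, both strands). It was found in 3 of the 67 genes, Hspd1, Hspe1 and Dnajb6, which is 4.48%, against 0.514% of 27025 genes in the table. The 2-unit forms, GAANNTTC and TTCNNGAA, lie inside it and were found in 14 of the 67 (20.9%) against 14.5% of all genes. The ER stress element (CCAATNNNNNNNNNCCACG, both strands) was found in Hspa5, Hsp90b1 and Dnajc3, again 4.48%, against 0.13% of all genes.

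The stretches below run 5′ to 3′ on the strand of the named gene, with heat shock element letters in capitals. They are shown because they belong to the chaperonin pair, to a J-domain gene with the full element and to 3 genes whose levels are compared further on. The first, at chr1:55088053-55088082 on the plus strand, lies between the divergent starts of Hspe1 and Hspd1 and counts for both, since 2 overlapping matches there make 4 units in a row. The others lie at chr5:29735843-29735872 (plus, Dnajb6), chr5:149636357-149636456 (minus, Hsph1), chr4:40722333-40722362 (plus, Dnaja1) and chr17:34972157-34972306 (minus, Hspa1a).
Hspe1: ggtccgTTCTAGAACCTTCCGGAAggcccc
Dnajb6: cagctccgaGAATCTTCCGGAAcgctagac
Hsph1: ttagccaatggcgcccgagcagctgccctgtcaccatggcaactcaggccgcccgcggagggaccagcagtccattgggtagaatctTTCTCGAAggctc
Dnaja1: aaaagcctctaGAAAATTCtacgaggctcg
Hspa1a: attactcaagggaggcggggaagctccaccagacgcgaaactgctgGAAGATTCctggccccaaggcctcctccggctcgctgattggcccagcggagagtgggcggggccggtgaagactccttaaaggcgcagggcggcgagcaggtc

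The ER stress element was found in 3 genes whose products reside in the endoplasmic reticulum, and not in the windows of Dnajb9, Dnajb11 and Dnajc10, which reside there too. Capitals now show that element, at chr2:34772019-34772048 (plus, Hspa5), chr10:86705511-86705664 (minus, Hsp90b1, with a match on each strand) and chr14:118937812-118937931 (plus, Dnajc3).
Hspa5: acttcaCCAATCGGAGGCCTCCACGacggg
Hsp90b1: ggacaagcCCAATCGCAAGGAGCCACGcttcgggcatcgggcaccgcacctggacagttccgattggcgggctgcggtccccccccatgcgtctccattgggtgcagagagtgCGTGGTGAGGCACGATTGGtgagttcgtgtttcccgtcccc
Dnajc3: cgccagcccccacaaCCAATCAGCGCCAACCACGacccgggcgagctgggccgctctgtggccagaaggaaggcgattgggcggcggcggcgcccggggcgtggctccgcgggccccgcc

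**Figure D1:**
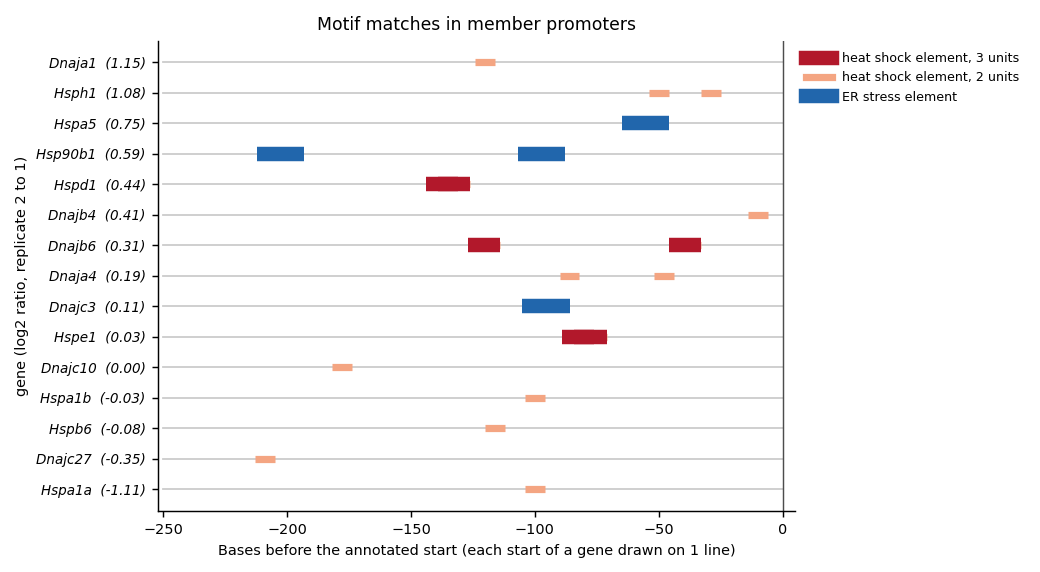
Position of motif matches in the promoters of members with a mean level of at least 1 CPM, in bases before the annotated RefSeq start. Each gene's log2 ratio between the libraries is in brackets. All starts of a gene share 1 line, so the same site of Dnajb6 and of Hsph1 is drawn at more than 1 distance. Full heat shock elements appear for Hspd1, Hspe1 and Dnajb6 and ER stress elements for Hspa5, Hsp90b1 and Dnajc3, and the ratios beside them range from 0.03 for Hspe1 to 0.75 for Hspa5.

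Most of the family was present in the purified RNA. Of the 84 genes, 70 reached 1 CPM in each library (83.3%), which is the level called detected here, against 38.1% of all symbols. A mean of at least 100 CPM was reached by 22 genes (26.2%) against 6.81% of all symbols. The median member stood at 38.8 CPM. Counts of all members together made up 0.796% of gene counts in replicate 1 and 1.02% in replicate 2. The limit behind a count of 0 is 3 counts, or 0.0958 CPM in replicate 1 and 0.0917 in replicate 2, and covers counting error only. In pulled-down RNA from tissue, fewer cells of a type and less RNA per cell cannot be told apart.

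**Figure D2:**
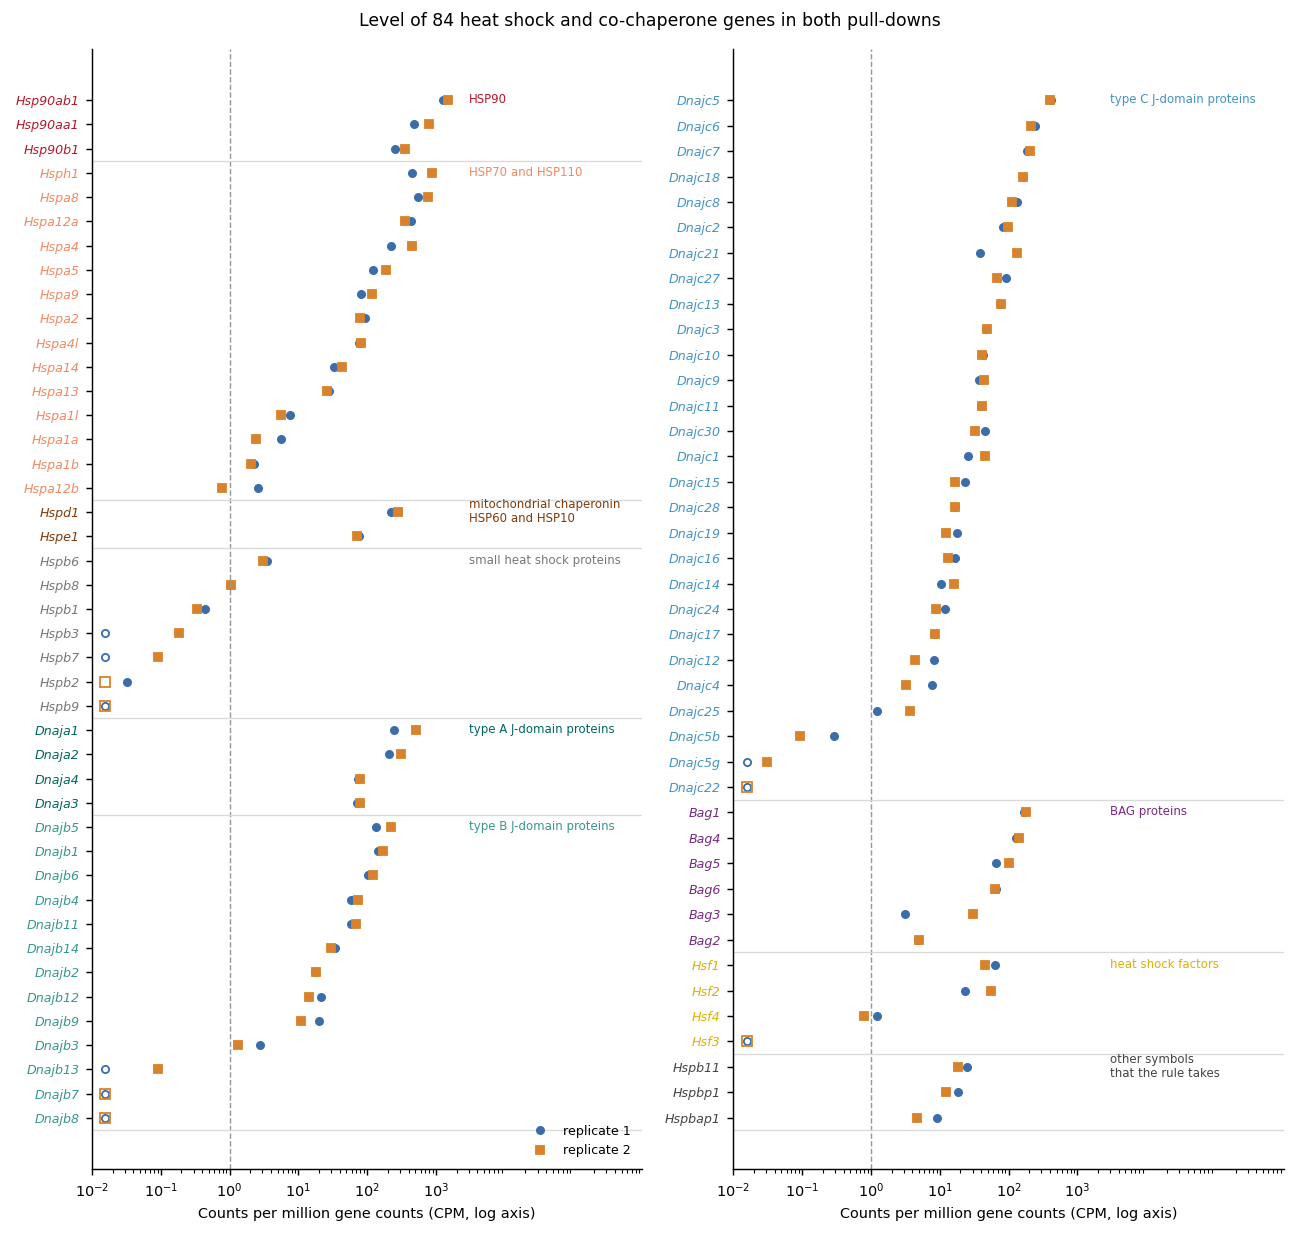
Level of each of the 84 genes in CPM on a log axis, grouped by role, with a blue circle for replicate 1 and an orange square for replicate 2. Open symbols at the left edge are libraries with 0 counts, and the dashed line is 1 CPM. The HSP90 genes, most HSP70 genes and the type A J-domain genes lie well to the right of that line, while 5 of the 7 small heat shock proteins lie to its left in both libraries.

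Levels of different genes were set side by side per kilobase of exon, using the union of GENCODE exons on GRCm38, which is mm10. Hsp90ab1, the constitutive cytosolic HSP90, was highest at 462 ± 59.7 CPM per kilobase (SD, n = 2). The stress-inducible cytosolic HSP90 gene Hsp90aa1 came next at 164 ± 56.9 and the constitutive HSP70 gene Hspa8 at 153 ± 35.0 CPM per kilobase. Those 2 neighbours differed by less than their spread. Bag1, an exchange factor for HSP70, followed at 129 ± 8.68 CPM per kilobase. Hspd1, Hsph1 and Dnaja2 lay between 95.5 and 88.0 CPM per kilobase, again within their spread. The median member stood at 7.08 CPM per kilobase and the median of genes with a count in both libraries at 3.10. Per kilobase of coding sequence, Dnajc5, whose exons are mostly untranslated, was first at 671 CPM and Hsp90ab1 second at 638 CPM, and 7 of the first 10 genes were shared between both orders.

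**Figure D3:**
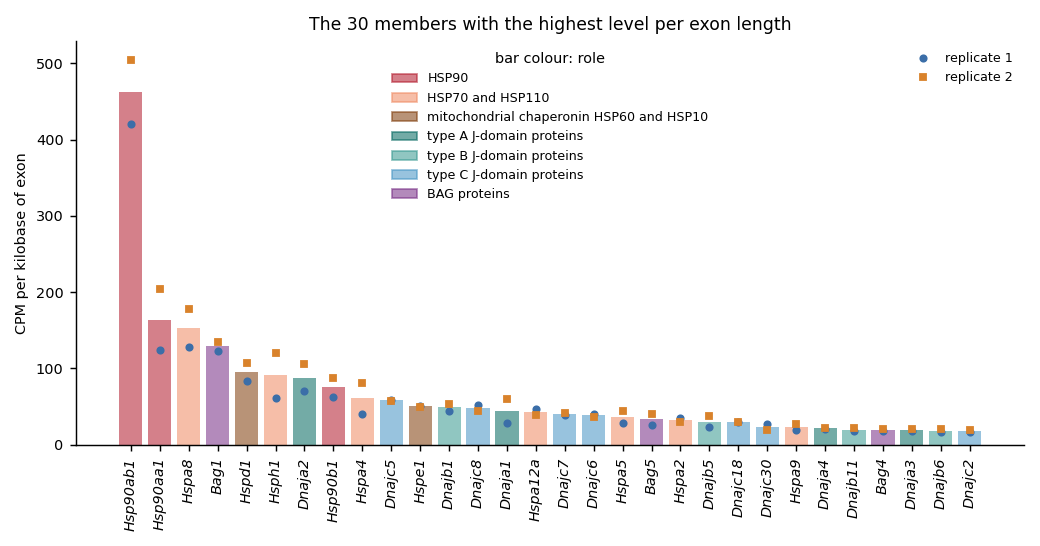
The 30 members with the highest level in CPM per kilobase of exon. Bars are means of both libraries, coloured by role, with circles for replicate 1 and squares for replicate 2. Hsp90ab1 stands apart at 462 CPM per kilobase, and the circle and square lie far apart for Hsp90aa1, Hsph1, Hspa4 and Dnaja1.

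The libraries were compared gene by gene as the log2 ratio of replicate 2 over replicate 1, after scaling by TMM (trimmed mean of M-values, edgeR) and with a prior count of 2. Only genes with a mean of at least 1 CPM were compared, which left 72 of the 84. Hspa12b and Hsf4 passed on their mean although replicate 2 was below 1 CPM. Such a ratio compares 2 libraries of 1 group and not conditions, so no p-value is given and the 95% intervals cover counting error only.

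Of the 72 genes, 7 were at least 2-fold higher in replicate 2 (9.72%) against 4.51% of all 13089 genes compared. In the other direction 3 were at least 2-fold higher in replicate 1 (4.17%) against 5.75%. With a limit of 1.5-fold, 16 were higher in replicate 2 (22.2%) against 12.6%, and 7 were higher in replicate 1 (9.72%) against 14.3%. Any excess in replicate 2 was seen for 46 genes (63.9%) against 49.2%. The median log2 ratio was 0.12 for the members and -0.01 for all genes compared. The counting interval lay off 0 for 59 of the 72 (81.9%) and for 72.9% of all genes, so that alone sets the members little apart.

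Abundant members leaned further towards replicate 2. Among the 22 with a mean of at least 100 CPM, 19 were higher in replicate 2 (86.4%) against 60.5% of 2214 genes at that level. The filter, for members and all genes alike, used the mean of the same 2 libraries that are compared. Hspa9 passed on its mean although replicate 1 was at 82.8 CPM. At least 1.5-fold higher in replicate 2 were 9 of the 22 (40.9%) against 10.3%, and 3 were past 2-fold (13.6%) against 2.71%. None of the 22 was 1.5-fold higher in replicate 1, against 2.44%. These counts at 100 CPM were not rerun under the other settings given at the end, and some ratios lie near the limits. With scaling by library totals alone, Hsp90b1 (0.50), Hspa9 (0.53) and Dnaja2 (0.58) were short of 1.5-fold. Hsph1 and Hspa4 were then short of 2-fold. With a trend with length and GC content removed, Hsp90b1 (0.51) and Hspa9 (0.56) were short of 1.5-fold.

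**Figure D4:**
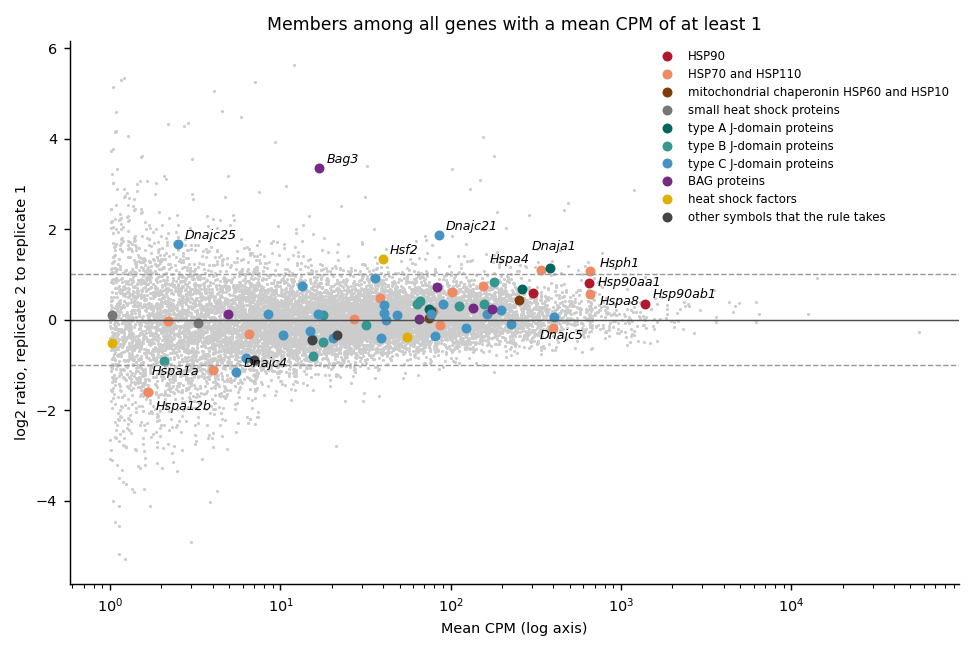
Log2 ratio of replicate 2 over replicate 1 against mean CPM (log axis), with all other genes of at least 1 CPM in grey and the 72 members coloured by role. Dashed lines are 2-fold. Bag3 at 3.35 and Dnajc21 at 1.87 are the highest of the coloured points, and Hsph1, Hspa4 and Dnaja1 lie just above the upper line at high level.

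All 3 HSP90 genes were higher in replicate 2, against 60.5% of all genes with a mean of at least 100 CPM. Hsp90ab1 measured 1260 CPM in replicate 1 and 1513 in replicate 2, a log2 ratio of 0.36 (0.34 to 0.38). Hsp90aa1 was at 486 and 802 CPM (0.82, 0.79 to 0.84). Hsp90b1, the HSP90 of the endoplasmic reticulum, was at 251 and 354 CPM (0.59). The inducible cytosolic gene thus had a larger ratio than the constitutive one, and their counting intervals do not overlap. Of the 50-base words in Hsp90aa1 transcripts, 52.5% occur in no other gene's transcript, and reads from the rest may be lost as non-unique, which was not tested.

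In the HSP70 and HSP110 group 8 of 14 genes had a ratio above 0, not far from the 49.2% of all genes compared. Hspa8, which among much else strips clathrin from vesicles, measured 552 CPM in replicate 1 and 765 in replicate 2 (log2 ratio 0.56, 0.53 to 0.59). Hspa5, the endoplasmic reticulum HSP70 known as BiP, was at 120 and 189 CPM (0.75). Hspa9, the mitochondrial HSP70, was at 82.8 and 119 CPM (0.62). Hspa14, which works at the ribosome, was at 33.2 and 43.7 CPM (0.49). Of the 50-base words of Hspa8, 60.6% are its own, so its level and its place in the order per kilobase are uncertain.

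Genes of the HSP110 branch, whose products act as exchange factors and help to dissolve aggregates, did not move alike. Hsph1 on chromosome 5 (149614287 to 149636376, minus strand) measured 443 CPM in replicate 1 and 876 in replicate 2, a 2.11-fold difference with a log2 ratio of 1.08 (1.05 to 1.11). Hspa4 on chromosome 11 (53259814 to 53300457, minus strand) was at 225 and 449 CPM (1.09, 1.05 to 1.13). Hspa4l was nearly level, at 76.1 and 81.2 CPM (0.19, 0.11 to 0.27). Hsph1 and Hspa4 share no 50-base word with another gene's annotated transcript, and the placement of their reads was not tested.

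Other HSP70 genes were level or higher in replicate 1. Hspa12a, a distant relative of the family, measured 435 CPM in replicate 1 and 357 in replicate 2 (-0.19). Hspa2 was at 92.7 and 79.8 CPM (-0.12) and Hspa13, a microsomal relative, at 27.7 and 26.1 CPM (0.01). Hspa12b, known from endothelial cells, was at 2.59 and 0.764 CPM (-1.59). The 8 endothelial markers summed to 27.1 CPM in replicate 1 and 23.1 in replicate 2. Tek (-1.45), Cdh5 (-1.36), Cldn5 (-0.88) and Ly6c1 (-0.63) were below 0 in log2 ratio and Kdr (0.92), Pecam1 (0.32), Flt1 (0.21) and Slco1a4 (0.16) above it, and the part of these cells in the result was not tested.

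The classic stress-inducible HSP70 genes were scarce. Hspa1a on chromosome 17 (34969190 to 34972156, minus strand) measured 5.62 CPM in replicate 1 and 2.42 in replicate 2, a log2 ratio of -1.11 (-1.53 to -0.74). Its near copy Hspa1b was at 2.27 and 2.08 CPM (-0.03, -0.53 to 0.47). Hspa1l, the neighbour that starts close to Hspa1a on the opposite strand, was at 7.47 and 5.62 CPM (-0.31). These 3 levels are uncertain, because 33.7%, 37.7% and 28.6% of their 50-base words are their own and reads from the shared parts may lie among the non-unique alignments, which was not tested. Hspa1a thus had a ratio below 0, while those of Hsph1 and Dnaja1 were above 0. All 3 promoters printed above hold 2 heat shock units, a form found in 14.5% of all genes. The part of the motif in these ratios was not tested.

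The mitochondrial chaperonin genes start from opposite sides of the element printed above and differed in ratio. Hspd1, which encodes the HSP60 barrel, measured 222 CPM in replicate 1 and 283 in replicate 2 (log2 ratio 0.44, 0.40 to 0.49). Hspe1, which encodes the HSP10 lid, was at 75.6 and 72.4 CPM (0.03, -0.05 to 0.11). Of their 50-base words, 57.9% and 77.2% are their own, the rest being shared with 10 and 7 other annotated genes. Of the pair, the HSP60 gene alone had an interval off 0.

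Small heat shock proteins, which hold unfolded proteins without ATP and are abundant in muscle and glia, were nearly absent. Hspb6 measured 3.48 CPM in replicate 1 and 3.09 in replicate 2. Hspb8, the partner of Bag3 in selective autophagy, was at 1.02 and 1.04 CPM. Hspb1, the gene of HSP25, had 14 and 11 counts, Hspb3 had 0 and 6, Hspb7 had 0 and 3, Hspb2 had 1 and 0, and Hspb9 had none. Of their crystallin relatives, Cryab was at 3.10 and 2.60 CPM and Cryaa had 0 counts in both. Astrocyte markers summed to 476 and 518 CPM, of which the glutamate transporter Slc1a2 made up 389 and 413 CPM.

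Genes of the type A J-domain proteins, the general partners of HSP70, were higher in replicate 2 in 4 of 4 cases, against 49.2% of all genes compared. Dnaja1 on chromosome 4 (40722150 to 40737149, plus strand) measured 247 CPM in replicate 1 and 514 in replicate 2, a log2 ratio of 1.15 (1.11 to 1.19). Dnaja2 was at 210 and 314 CPM (0.68, 0.63 to 0.72). Dnaja4 was at 73.6 and 78.8 CPM (0.19) and the mitochondrial Dnaja3 at 71.1 and 78.3 CPM (0.23). Dnaja1 and Dnaja2 thus had larger log2 ratios than the other 2 members of the class, with counting intervals that do not overlap theirs. Of the 50-base words, 79.4% for Dnaja1 and 57.3% for Dnaja4 occur in no other gene's annotated transcript.

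Of the 13 type B genes 10 were detected, against 38.1% of all symbols. Dnajb5, a partner of class II histone deacetylases, measured 134 CPM in replicate 1 and 223 in replicate 2 (log2 ratio 0.83) and had the largest ratio of the class among the 10 compared. Dnajb1, the canonical heat-inducible HSP40, was at 143 and 170 CPM (0.34). Dnajb6, which suppresses polyglutamine aggregation, was at 104 and 121 CPM (0.31), and Dnajb4 at 58.3 and 72.8 CPM (0.41). Dnajb2, a neuronal J-domain protein, was level at 17.7 and 17.8 CPM. The membrane-anchored Dnajb12 was lower in replicate 2 (21.3 and 14.1 CPM, -0.50), and for the related Dnajb14 (34.1 and 29.4 CPM, -0.12) the interval included 0. Dnajb3 was at 2.78 and 1.35 CPM (-0.92), Dnajb13 had 0 and 3 counts, and Dnajb7 and Dnajb8 had none.

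Type C genes are the specialists, with a J-domain and little else in common. Of the 28 genes 25 were compared, of which 15 had a ratio above 0, against 49.2% of all genes compared. Their median was 0.11. Dnajc5, which encodes the vesicle protein CSP alpha, measured 410 CPM in replicate 1 and 398 in replicate 2 (log2 ratio 0.05). Dnajc6, the clathrin-uncoating factor auxilin, was at 240 and 212 CPM (-0.09), and the endosomal Dnajc13 at 75.4 and 77.4 CPM (0.13). Dnajc7, Dnajc18 and Dnajc8 had mean levels between 123 and 197 CPM with log2 ratios from -0.18 to 0.21.

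Dnajc21, which helps to mature the large ribosomal subunit, lies on chromosome 15 (10446756 to 10470516, minus strand). It measured 38.3 CPM in replicate 1 and 132 in replicate 2, a 3.66-fold difference with a log2 ratio of 1.87 (1.78 to 1.97). Dnajc2, the ribosome-bound partner of Hspa14, was at 82.3 and 98.2 CPM (0.35). Dnajc21 had the second largest ratio of the 72 after Bag3.

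Among the remaining type C genes, Dnajc25 measured 1.21 CPM in replicate 1 and 3.76 in replicate 2 (log2 ratio 1.67, 1.19 to 2.29), from 38 and 123 counts. Dnajc1 lay just inside the 2-fold limit at 25.9 and 46.1 CPM (0.92), and Dnajc14 at 10.3 and 16.4 CPM (0.76). In the other direction Dnajc4 was at 7.79 and 3.24 CPM (-1.16, -1.52 to -0.84) and Dnajc12, a partner of aromatic amino acid hydroxylases, at 8.30 and 4.31 CPM (-0.84). Dnajc15 was at 23.7 and 16.8 CPM (-0.40), Dnajc19 at 18.0 and 12.5 CPM (-0.44), Dnajc30 at 45.8 and 32.6 CPM (-0.40) and Dnajc11 at 39.7 and 41.6 CPM (0.16), all 4 genes of mitochondrial proteins. Dnajc27, which alone of the 67 promoters searched held a cyclic AMP response element (TGACGTCA, 1.49% against 1.77% of all genes), was at 92.6 and 68.0 CPM (-0.35). Dnajc9, Dnajc16, Dnajc17, Dnajc24 and Dnajc28 had log2 ratios from -0.33 to 0.33, with intervals that include 0 for Dnajc17 and Dnajc28. Dnajc5b had 9 and 3 counts, Dnajc5g had 0 and 1, and Dnajc22 had none.

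Members of the endoplasmic reticulum did not share 1 direction. Hspa5 and Hsp90b1 were higher in replicate 2, and their partner Dnajb11 measured 57.7 CPM in replicate 1 and 69.3 in replicate 2 (log2 ratio 0.36). Dnajc3 (47.8 and 48.4 CPM, 0.11) and Dnajc10 (43.2 and 40.5 CPM, 0.00) had small ratios. Dnajb9, a sensitive target of the unfolded protein response, was at 20.2 and 10.9 CPM (-0.80, -0.99 to -0.61). The exchange factor Hyou1, which serves Hspa5, was lower as well (40.6 and 26.9 CPM, -0.50). Of 17 genes of endoplasmic reticulum folding and its stress response, 10 were above 0, against 49.2% of all genes compared. Their median log2 ratio was 0.11. None was past 2-fold, against 4.51% of all genes higher in replicate 2 and 5.75% higher in replicate 1. Canx (167 and 217 CPM, 0.47), Atf6 (372 and 376 CPM, 0.11) and Pdia3 (107 and 109 CPM, 0.12) were highest per exon length.

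BAG proteins bind the ATPase domain of HSP70 and release its nucleotide. Bag3 couples HSP70 to small heat shock proteins and to autophagy, and lies on chromosome 7 (128523616 to 128546981, plus strand). It measured 3.13 CPM in replicate 1 and 30.6 in replicate 2, from 98 and 1000 counts. That is a 10.2-fold difference, with a log2 ratio of 3.35 (3.08 to 3.69), the largest of the 72 members. Bag5 was at 65.3 and 101 CPM (0.72). Bag1 (166 and 182 CPM, 0.23) and Bag4 (127 and 143 CPM, 0.26) had small ratios, and Bag6 (66.4 and 63.2 CPM, 0.02) and Bag2 (4.85 and 4.95 CPM, 0.12) were level within counting error. Hspbp1, another exchange factor, was lower in replicate 2 at 18.3 and 12.5 CPM (-0.46). Of the 6 BAG genes Bag3 alone was past 2-fold, and no 50-base word of its transcripts occurs in another gene's annotated transcript.

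Heat shock factors went in opposite directions. Hsf1, the master regulator of the heat shock response, measured 64.3 CPM in replicate 1 and 46.0 in replicate 2 (log2 ratio -0.39, -0.49 to -0.29). Hsf2 on chromosome 10 (57486385 to 57513135, plus strand), which is tied to development and to sustained stress, was at 23.5 and 56.0 CPM (1.34, 1.22 to 1.47). Each interval lies on its own side of 0. Hsf4, the lens factor, had 39 and 26 counts (-0.52, -1.33 to 0.20), and Hsf3 had none. The other symbols of the prefix, Hspb11 (24.8 and 18.4 CPM, -0.34) and Hspbap1 (9.23 and 4.68 CPM, -0.88), were lower in replicate 2.

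**Figure D5:**
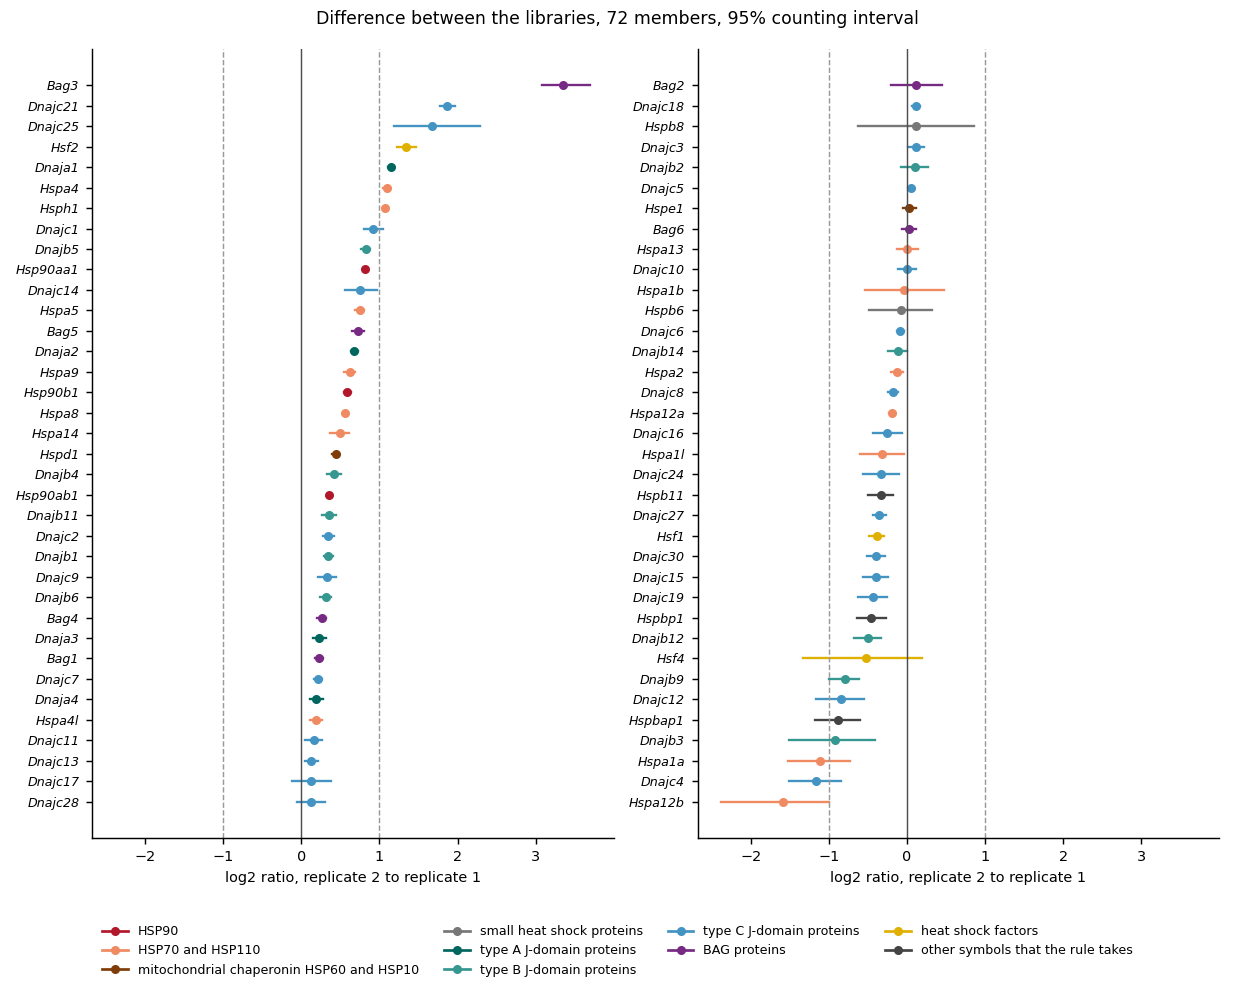
Log2 ratio of replicate 2 over replicate 1 for the 72 members compared, in order, with 95% counting intervals as bars and colours for roles. Dashed lines are 2-fold. The upper end holds Bag3, Dnajc21, Dnajc25, Hsf2, Dnaja1, Hspa4 and Hsph1, and the lower end Hspa12b, Dnajc4 and Hspa1a.

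Chaperone genes outside the naming rule were described by fixed lists, to be read against all genes compared, of which 49.2% were above 0 and 4.51% at least 2-fold higher in replicate 2. Of 17 partner proteins of HSP90 and HSP70 with a mean of at least 1 CPM, 12 were above 0 and none was past 2-fold, with a median log2 ratio of 0.21. The adaptor Stip1, which joins HSP70 to HSP90 and was highest of that list per exon length, was at 147 and 152 CPM (0.14), and Ptges3, the p23 protein, at 66.2 and 86.6 CPM (0.48), while Sgtb was lower in replicate 2 (137 and 103 CPM, -0.32). Of 14 genes of the cytosolic chaperonin and its helper prefoldin, 11 were above 0 with a median of 0.40 and none past 2-fold. Cct6a, highest of these per exon length, was at 192 and 267 CPM (0.57). Cct8 (0.79) and Tcp1 (0.77) led in log2 ratio, while the prefoldin gene Pfdn1 was lower in replicate 2 (24.9 and 17.1 CPM, -0.45). The 4 exchange factors outside the rule had a median of 0.09. Of 11 targets of Hsf1 outside the rule, of which Stip1, Fkbp4, Ahsa1 and Chordc1 are also in the partner list and Tcp1 in the chaperonin list, 8 were above 0 with a median of 0.14. Hmox1, a gene of oxidative stress, was the only one past 2-fold, at 4.09 and 7.76 CPM (1.01, 0.71 to 1.34), and Zfand2a, a strongly heat-inducible gene, was lower (131 and 96.5 CPM, -0.35).

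Ratios were set beside the motifs for the 58 members that were both compared and in the promoter table. The 12 with a heat shock element of 2 or more units had a median log2 ratio of 0.11 and the 46 without one 0.12. All genes compared had medians of 0.02 and -0.01 in these classes. The 3 with an ER stress element had 0.59, 0.75 and 0.11. Bag3, Dnajc21, Hspa4 and Hsf2 held none of the motif letters in the window searched. A match is a description of the sequence and not of binding. Only exact letters before the start were searched, so the lack of a match does not show that a gene lacks an element.

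Markers of other cells and of activity moved with the libraries as well. In the immediate early list 10 of the 15 genes compared were higher in replicate 2, against 49.2% of all genes compared. The list had a median log2 ratio of 0.67 and was led by Arc (33.2 and 265 CPM, 3.08) and Egr3 (304 and 2071 CPM, 2.86). Egr1 (-0.29), Dusp1 (-0.75) and Npas4 (-0.92) were among those lower in replicate 2. Oligodendrocyte precursor markers summed to 15.2 CPM in replicate 1 and 24.8 in replicate 2. Of these 6 markers 4 were above 0 in log2 ratio, while Olig1 (-0.83) and Sox10 (-0.92) were below it. Oligodendrocyte markers summed to 196 and 162 CPM, with 2 of the 7 compared above 0. Markers of pericytes and smooth muscle summed to 19.5 and 21.8 CPM, carried by Rgs5 (9.90 and 13.8 CPM). Of the 5 of them compared 3 were below 0, with a median log2 ratio of -0.98, and Acta2 had 63 and 2 counts. Those of ependymal cells summed to 9.68 and 7.58 CPM, with Cfap126 and Tmem212 at 0 counts. GABAergic markers summed to 122 and 160 CPM, with 3 of the 6 compared above 0, from -1.38 for Lhx6 to 2.39 for Dlx1. Granule cell markers had a median log2 ratio of 0.10, from -0.33 to 0.48. The part of any of these in the chaperone ratios was not tested.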

How the data were processed

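RNA sequencing counts were analysed for 2 immunopurified libraries of 1 group. The deposited files give raw counts per gene symbol. STAR 2.0.0e, HTSeq and genome build mm10 are named in the submitters' processing notes, while the sources used here give no annotation, strand setting or counting mode, so that sense and antisense reads cannot be told apart. HTSeq summary lines and a line named unknown (0 counts) stayed out of the totals, and 65.0% and 64.9% of all lines' counts were on gene lines.

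CPM, TMM factors (edgeR 4.0.16), log2 ratios with a prior count of 2 and exact 95% intervals (Poisson, Clopper-Pearson) were computed here, with Python 3.11.15. All 84 members matched a GENCODE M21 symbol. The 50-base words were compared with all GENCODE transcripts on both strands. The ratio was run on simulated counts with counting error alone and a known scaling. That run does not cover the larger spread between these libraries. DESeq2 1.42.0 size factors were an alternative.

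Named genes comprise BAG and HSF members, the highest per length in each role, those of at least 100 CPM, those past or near 2-fold and those at 0, with the other members and some list genes (such as Cct8, Tcp1, Pfdn1 and Egr1) added after their values were seen. Members, lists and roles were chosen with earlier results of these data known. One group allows no test between conditions.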

Additional observations from a re-analysis of the deposited data

Results flagged for a closer look

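Counts outside the gene lines entered no comparison and lay above the 3 counts that a count of 0 allows. Lines for reads on no annotated feature held 16.7% of all counts in replicate 1 and 17.0% in replicate 2. Non-unique alignments, where reads of Hspa1a, Hspa1b and other members with copies may lie, held 15.7% and 15.5%. Reads on several genes held 2.61% and 2.56%.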

How the results depend on the processing

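The count of members at least 2-fold higher in replicate 2 was 7 and ranged from 5 to 10 over the alternatives. The 10, of 79 with no filter on low values, stand beside 12.1% of all genes, so the members were not set apart there. A count of 5 of 72 stood beside 3.66% with library totals alone and 3.93% with a trend with length and GC content removed. With a minimum mean of 10 CPM the count was 6 of 58, beside 2.18% of all genes. Bag3, Dnajc21, Dnajc25 and Hsf2 were past 2-fold under library totals alone, DESeq2 size factors, a prior count of 0.5 and removal of a trend with length and GC content, a setting chosen after the data were seen. With library totals alone Hsph1 (0.99) and Hspa4 (just short of the limit) were not past it, and with the length and GC trend removed Hsph1 (0.98) and Dnaja1 (0.99) were not. The count in the other direction was 3, and it was 0 with a minimum mean of 10 CPM, where fewer genes were compared. At that minimum 1.01% of all genes were at least 2-fold higher in replicate 1. With that trend removed, Hspa1a (-0.90) and Dnajc4 (-0.97) were not past 2-fold and Hspbap1 (-1.03) was. The median log2 ratio of the members lay between 0.03 (library totals alone, which moved all genes to -0.10) and 0.20 (minimum mean of 10 CPM). Library totals alone changed the sign of 5 small ratios (Hspa13, Hspe1, Dnajc5, Dnajc10, Bag6), and removing the trend that of 7 (Hspa4l, Hspa13, Hspa1b, Hspb6, Dnajc5, Dnajc13, Dnajc10), with Hspa4l at -0.01. Detected members numbered 59 at 5 CPM and 72 at 0.5 CPM, and 70 to 72 in a single library. The median level was 33.6 CPM in replicate 1 alone and 41.1 CPM in replicate 2 alone. Length from a protein table was not run, and coding length took its place. No paired analysis was possible because there is 1 group. Depth limits the ratios of genes at few counts, such as Hspb8, Hsf4 and Hspa1b, whose intervals include 0.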
